A study of Mus musculus with 16 samples.

Results

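Promoters that carried an H3K27Ac peak in the hearts of unstressed mice of both genotypes, and had no peak call there after swimming in either genotype, are described here. H3K27Ac is histone H3 acetylated at lysine 27. It was mapped by chromatin immunoprecipitation sequencing (ChIP-seq), in which DNA bound by an antibody is sequenced and compared with input chromatin that was not precipitated. The members were chosen by the peak calls themselves, so the absence after swimming is their definition and not a finding. A peak was a member if it came from the Des+/+ basal list, lay within 1000 bp of a transcription start, was narrower than 2500 bp, had an input height under 10 reads, overlapped a Des-/- basal peak by at least 1 bp, and overlapped no peak of either swim list. Of 15757 Des+/+ basal peaks, 10505 lay within 1000 bp of a start, 9976 of these passed the limits on width and input, and 9228 also overlapped a Des-/- basal peak and are called eligible here. The members were 1740 of these 9228, which is 18.9% of eligible promoter peaks (95% Wilson interval 18.1 to 19.7%, counting error only), of 53959 peaks in all 4 H3K27Ac lists.

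The 4 groups were adult cardiomyocytes, the contracting cells of the heart, isolated by enzymatic perfusion from mice aged 3 months. Des+/+ mice had intact desmin, the muscle intermediate filament protein, and Des-/- mice carried a null desmin gene in every cell. The study's methods give a 129SV background for the desmin-null line and state that the Des+/+ line was backcrossed to 129SV. They use the names Des+/+ and Des-/- for lines that also carried an αMHC-GFP transgene, a fluorescent reporter driven by a cardiac myosin promoter. Mice were either left unstressed (basal) or subjected to swimming exercise (swim). Each group was 1 library made from chromatin of several pooled mice, so there was no replicate, no difference has a replicate check, and no test was possible. Intervals below cover counting error only. Peak height is read coverage at the peak in whole reads, as the authors deposited it, and the lowest height in each list was 15 reads.

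Acetylation of histone H3 at lysine 27 is written by the acetyltransferases p300 and CBP and removed by histone deacetylases, and it marks active promoters and enhancers. At an active promoter the mark flanks the nucleosome-free start site, with its strongest part usually on the first nucleosomes downstream. A promoter can be marked in a narrow block, as at many housekeeping genes with CpG-rich starts, or in a broad domain, as at genes that define a cell type. The question that these 4 lists pose is which promoter marks were called before and not after the swimming stress, with and without desmin.

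All 4 lists held peaks at cardiomyocyte genes, but not equally. Of 12 cardiomyocyte marker genes, all 12 had a peak in both basal lists and in Des+/+ swim, and 8 had one in Des-/- swim, where Myl2, Actn2, Mybpc3 and Ckm had none. Of 10 endothelial markers, 10, 10, 9 and 8 had a peak (Des+/+ basal, Des-/- basal, then Des+/+ and Des-/- swim), of 9 fibroblast markers 1, 3, 0 and 0, of 8 mural cell markers 1, 1, 1 and 0, of 7 Schwann cell and neuronal markers 3, 3, 3 and 2, and of 9 leukocyte markers 0 in each list. Thus peaks at most endothelial markers were in all 4 lists beside those of cardiomyocyte markers. The part of other cell types in the results was not tested. The swim lists were shorter (11157 peaks in Des+/+ and 10407 in Des-/-) than the basal lists (15757 and 16638). At promoter peaks kept in both swim lists the mean input height was 3.32 and 3.16 reads for the Des+/+ and Des-/- basal libraries. After swimming it was 3.42 reads for Des+/+ and 6.78 reads for Des-/-, the highest of the 4. The part of this in the calls was not tested.

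The leading members are shown first by their sequence, because a reader can see in it what kind of promoter they have. The windows are the 200 bases before the start of the transcript to which the deposited annotation assigned the peak, read from the reference genome GRCm38, which is of the C57BL/6J strain, and are written 5′ to 3′ on the strand of the gene. Capitals mark each CG, the dinucleotide in which cytosine can be methylated and which is frequent in CpG islands. The 5 members are those with the largest smaller-of-2 basal heights. The windows lie at chr8:20424815-20425014 (minus strand) for 2610005L07Rik, chr17:27839884-27840083 (plus) for Snrpc, chr17:30612660-30612859 (minus) for Glo1, chr8:20297433-20297632 (minus) for 6820431F20Rik and chr3:95042553-95042752 (minus) for Psmd4.
2610005L07Rik: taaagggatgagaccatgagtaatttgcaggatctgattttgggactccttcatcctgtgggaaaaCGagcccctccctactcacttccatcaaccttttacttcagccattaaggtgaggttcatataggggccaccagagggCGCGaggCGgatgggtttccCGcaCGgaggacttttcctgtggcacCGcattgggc
Snrpc: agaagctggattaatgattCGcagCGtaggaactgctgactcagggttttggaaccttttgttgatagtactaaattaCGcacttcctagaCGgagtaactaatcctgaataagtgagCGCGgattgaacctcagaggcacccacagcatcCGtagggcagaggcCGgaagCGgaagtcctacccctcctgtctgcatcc
Glo1: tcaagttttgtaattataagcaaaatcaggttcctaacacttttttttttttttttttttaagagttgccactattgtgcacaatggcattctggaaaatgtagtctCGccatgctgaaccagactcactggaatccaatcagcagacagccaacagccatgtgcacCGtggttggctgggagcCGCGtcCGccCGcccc
6820431F20Rik: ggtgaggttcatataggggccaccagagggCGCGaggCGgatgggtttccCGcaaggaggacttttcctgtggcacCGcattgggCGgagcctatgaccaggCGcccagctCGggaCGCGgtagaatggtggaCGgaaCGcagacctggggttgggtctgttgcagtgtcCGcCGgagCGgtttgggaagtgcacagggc
Psmd4: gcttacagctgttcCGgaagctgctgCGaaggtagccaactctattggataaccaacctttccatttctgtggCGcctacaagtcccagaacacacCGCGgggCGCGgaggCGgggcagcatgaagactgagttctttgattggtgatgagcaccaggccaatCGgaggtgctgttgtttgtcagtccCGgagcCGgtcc

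For comparison, the windows of 4 promoters that kept their peak in both swim lists follow, of 5 that were matched to the members. Each had the same Des+/+ basal height as 1 of the members above and, among such peaks, the Des-/- basal height nearest to it. They lie at chr13:54621584-54621783 (plus strand) for Faf2, chr11:70669417-70669616 (minus) for Spag7, chr3:79591142-79591341 (plus) for Ppid and chr10:127621149-127621348 (minus) for Lrp1.
Faf2: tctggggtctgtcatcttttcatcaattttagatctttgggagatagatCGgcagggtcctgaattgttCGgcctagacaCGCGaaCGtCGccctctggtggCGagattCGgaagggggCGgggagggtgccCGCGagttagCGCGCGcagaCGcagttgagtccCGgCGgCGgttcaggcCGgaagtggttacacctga
Spag7: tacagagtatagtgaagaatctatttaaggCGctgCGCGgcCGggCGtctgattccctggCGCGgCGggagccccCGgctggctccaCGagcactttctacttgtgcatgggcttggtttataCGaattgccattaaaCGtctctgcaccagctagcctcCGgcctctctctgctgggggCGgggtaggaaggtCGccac
Ppid: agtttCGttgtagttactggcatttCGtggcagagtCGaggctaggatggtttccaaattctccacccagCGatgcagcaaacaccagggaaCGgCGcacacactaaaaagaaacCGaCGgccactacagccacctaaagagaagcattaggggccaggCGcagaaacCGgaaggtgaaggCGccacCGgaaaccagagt
Lrp1: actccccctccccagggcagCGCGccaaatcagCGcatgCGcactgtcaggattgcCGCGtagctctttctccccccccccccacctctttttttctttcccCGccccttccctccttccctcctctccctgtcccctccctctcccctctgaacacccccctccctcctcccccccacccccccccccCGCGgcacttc

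The 5 members held 7, 9, 6, 15 and 11 CG dinucleotides in the order printed. As the set of kept windows shown is not complete, no comparison of CG content is drawn from it, and the CpG content of all members is given below. The windows of 2610005L07Rik and 6820431F20Rik, both annotated as cadherin 11 pseudogenes on chromosome 8, share a run of 54 identical bases. In the peak of 2610005L07Rik 40% of 100-base stretches occurred more than 1 time in the genome, and in that of 6820431F20Rik 48.5%. Where the other copies lie was not recorded. Reads from such stretches could be placed at another copy, so the heights at these 2 loci are uncertain. Snrpc, Glo1 and Psmd4 had no repeated stretch.

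The members were low peaks in the basal lists. In Des+/+ basal their height had a minimum of 15, a median of 18 and a maximum of 40 reads, with the middle of the members between 16 and 21. In Des-/- basal the overlapping peak had a minimum of 15, a median of 20 and a maximum of 109 reads, with the middle between 17 and 24. The 5405 eligible peaks kept in both swim lists had medians of 35 and 40 reads in the same lists. Of the members, 725 (41.7%) stood at 15 to 17 reads in Des+/+ basal, including 264 at exactly 15, the lowest height of any list. For 18 reads the 95% Poisson interval is 10.7 to 28.4, so for a typical member counting error alone reaches below 15. The members were higher in Des-/- basal than in Des+/+ basal in 990 cases, equal in 174 and lower in 576. The median ratio of Des-/- to Des+/+ basal height was 1.06 over the members and 1.11 over the kept peaks.

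**Figure D1:**
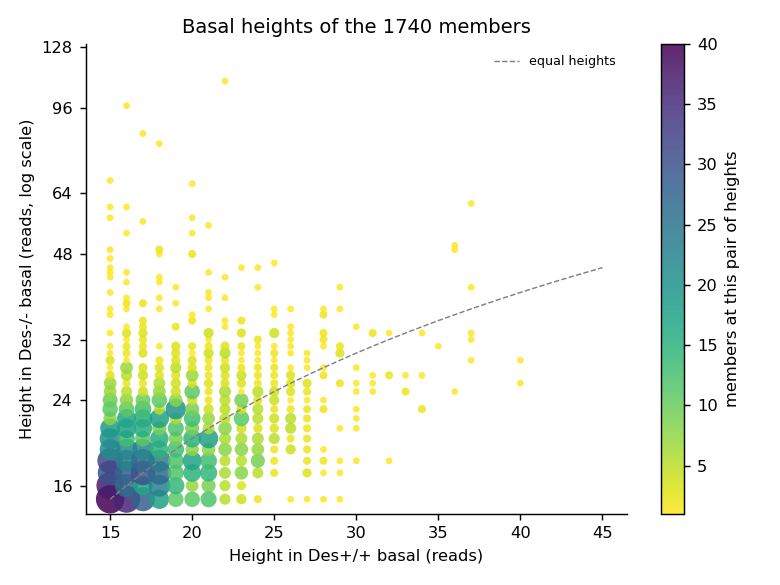
Height of the 1740 members in Des+/+ basal (horizontal axis, reads) against the height of the overlapping peak in Des-/- basal (vertical axis, reads, log scale); point size and colour give the number of members at each pair of heights, and the dashed curve marks equal heights. Most members crowd at the lowest heights in both lists (medians of 18 and 20 reads), and the few points above 64 reads in Des-/- basal include Calm3 (109 reads), Smad5 (68 reads) and Rbm3 (67 reads).

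The share of eligible peaks that were members fell steeply with basal height. At 15 to 17 reads in Des+/+ basal, 725 of 1307 eligible peaks were members (55.5%, interval 52.8 to 58.1%). At 18 to 20 reads the number was 488 of 1208 (40.4%, 37.7 to 43.2%), and at 21 to 23 reads 291 of 1103 (26.4%, 23.9 to 29.1%). These intervals do not overlap each other. At 24 to 26 reads it was 144 of 963 (interval 12.8 to 17.3%), at 27 to 29 reads 57 of 822 (6.93%), at 30 to 34 reads 24 of 960 (2.50%) and at 35 to 40 reads 11 of 776 (1.42%). Above 40 reads 0 of 2089 eligible peaks were members, which allows a share of up to 0.144%. Height in Des-/- basal added to this order. Among eligible peaks of 20 to 24 reads in Des+/+ basal, the share was 50.3% (194 of 386) where the Des-/- peak had 15 to 19 reads, 29.5% (172 of 584) at 20 to 24, 17.5% (79 of 451) at 25 to 29 and 13.5% (55 of 407) at 30 or more.

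**Figure D2:**
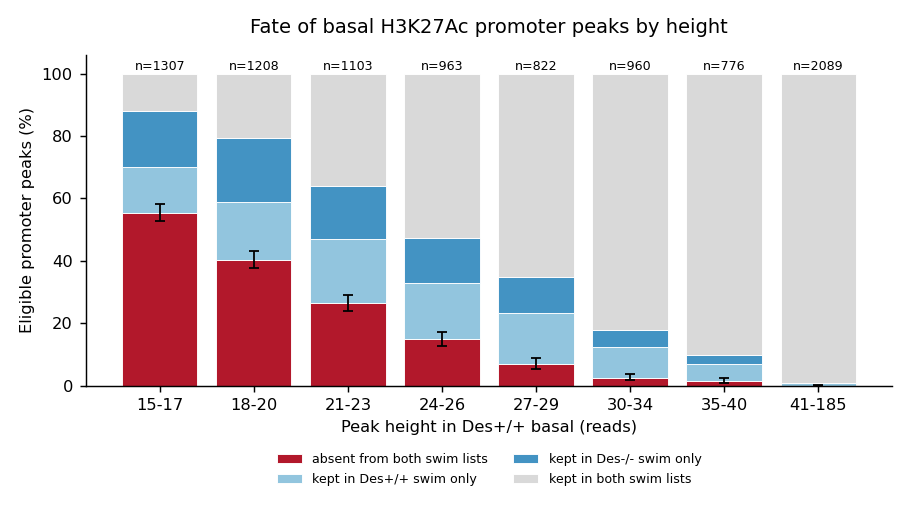
Share of the 9228 eligible promoter peaks (percent, vertical axis) in each fate, by height in Des+/+ basal (horizontal axis, reads); red is the members, blues are peaks kept in 1 swim list, grey is peaks kept in both, n is the number of eligible peaks, and bars are 95% Wilson intervals of the red share (for the last class, the limit that a count of 0 allows). The red share falls from 55.5% at 15 to 17 reads to 0 of 2089 above 40 reads.

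The swim libraries had lower heights at promoters that stayed marked. Over 1889 promoter peaks with 41 reads or more in both basal lists and a call in both swim lists, the median ratio of swim to basal height was 0.661 in Des+/+ (middle range 0.577 to 0.747) and 0.688 in Des-/- (0.611 to 0.775). Multiplied by these ratios, the members' median heights of 18 and 20 reads come to 11.9 and 13.8 reads, both under the lowest listed height of 15. For 198 members (11.4%) both scaled heights were 15 or more, and for 937 both were under 15. Of the 5575 eligible peaks with both scaled heights at 15 or more, the 198 members made up 3.55%. Differences in depth between the libraries are not known from the lists, so a lower mark after swimming and a shallower library cannot be told apart for the members. The kept peaks that had 18 reads in Des+/+ basal, the median of the members, numbered 68 and stood at a median of 17 reads in Des+/+ swim and 19 in Des-/- swim, close to the lowest listed height themselves.

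Absence from each swim list is counted here from the same calls that the rule used. In Des+/+ swim 2717 of the 9228 eligible peaks were absent (29.4%) and in Des-/- swim 2846 (30.8%). The 1740 members are the peaks absent from both, which is 61.1% of those absent from Des-/- swim. Height was not matched in this share, and low peaks were absent more often from each list. At 15 to 17 reads in Des+/+ basal, 12.1% of eligible peaks were kept in both swim lists, against 99.0% at 41 reads or more. The peaks kept in Des+/+ swim alone numbered 1106 (interval 11.3 to 12.7% of eligible) and those kept in Des-/- swim alone 977 (10.6%, 9.98 to 11.2%). Both had basal heights between those of the members and the peaks kept in both, with Des+/+ basal medians of 22 and 21 reads.

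A lower limit on basal height leaves the members for which counting error is least. A height of 24 reads is the lowest whose exact Poisson interval (15.4 to 35.7 reads) lies above 15. In both basal lists 5134 eligible peaks reached it, and 121 of them were members (2.36%). At 30 reads or more in both lists there were 12 members of 3483 eligible peaks (0.345%). The 25 highest members, ranked by the smaller of their 2 basal heights, ranged from 28 to 40 reads in Des+/+ basal and from 29 to 61 in Des-/- basal. Of these 25 peaks, 22 covered the annotated start, and 3 of the 25 genes had any peak assigned to them in a swim list. The kept promoters of 28 to 40 reads in Des+/+ basal, 1844 in number, had medians of 23 reads in Des+/+ swim and 26 reads in Des-/- swim.

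**Figure D3:**
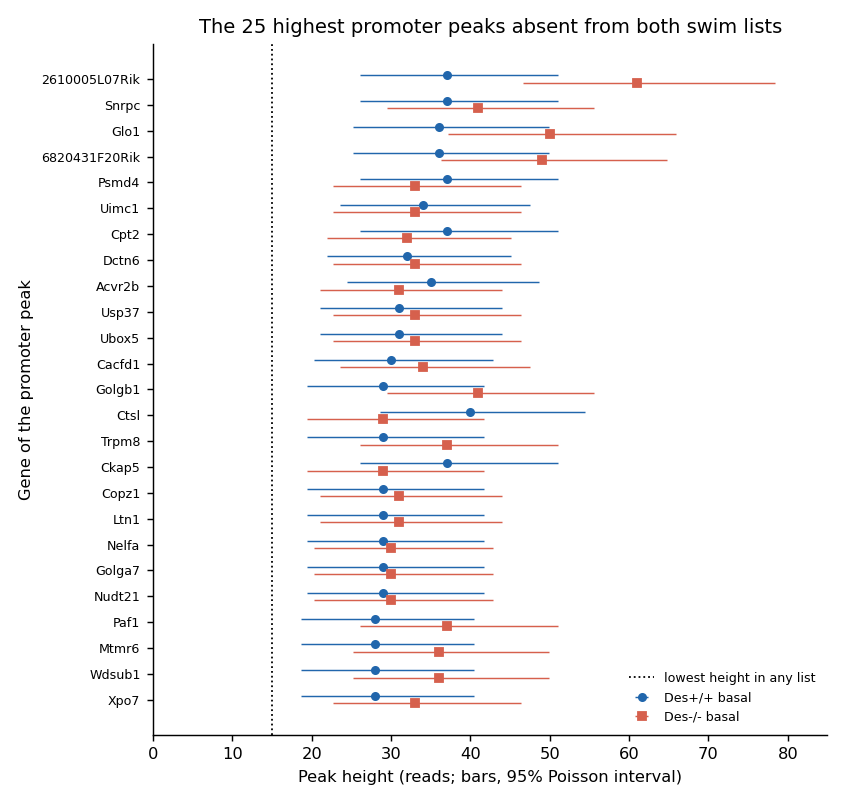
Peak heights (reads, horizontal axis) of the 25 highest members, by gene, in Des+/+ basal (blue circles) and Des-/- basal (red squares), with exact 95% Poisson intervals for counting error; the dotted line is the lowest height in any list, 15 reads. All 25 intervals lie above the line in both lists, which follows from the ranking by basal height. The heights shown were not scaled to the swim libraries. For all 25 genes the intervals of the genotypes overlap.

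Among these highest members were genes of protein turnover. Psmd4 (ENSMUSG00000005625, chr3:95041997-95042604, GRCm38), which encodes a ubiquitin receptor of the 26S proteasome, had 37 reads in Des+/+ basal and 33 in Des-/- basal, over inputs of 3 and 3 reads. The nearest swim peak lay 25724 bp away in Des+/+ and 25740 bp away in Des-/-. Uimc1, a ubiquitin-binding protein recruited to DNA breaks, had 34 and 33 reads. The U-box ubiquitin ligase gene Ubox5 had 31 and 33 reads, and Ltn1, the ligase that tags chains stalled on the ribosome, had 29 and 31. Ctsl (ENSMUSG00000021477), the lysosomal protease cathepsin L, had the tallest Des+/+ basal peak of the 25, with 40 reads, and 29 reads in Des-/- basal. No peak in either swim list was assigned to Psmd4, Uimc1, Ubox5, Ltn1 or Ctsl.

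Others serve metabolism and signalling. Cpt2 (ENSMUSG00000028607, chr4:107922215-107923635), the inner-membrane carnitine palmitoyltransferase that delivers long-chain fatty acids to beta-oxidation, had 37 reads in Des+/+ basal and 32 in Des-/- basal. Slc22a5, the plasma membrane carnitine transporter, is not among the 25 and was the highest member among solute carriers, with 31 and 26 reads. Glo1 (ENSMUSG00000024026, chr17:30611832-30612737), glyoxalase 1, which detoxifies methylglyoxal, had 36 reads in Des+/+ basal and 50 in Des-/- basal. The promoter of Acvr2b (ENSMUSG00000061393, chr9:119402102-119402898), a receptor of activins and myostatin, had 35 and 31 reads, and the nearest swim peaks were 60761 bp and 60999 bp away. Each of these 4 genes had no assigned peak in either swim list. The kept promoter Lrp1, with the same Des+/+ and Des-/- basal heights as Psmd4 (37 and 33 reads), had 17 reads in Des+/+ swim and 22 in Des-/- swim.

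The transcription and RNA machinery was present too. Nelfa, a subunit of the complex that holds RNA polymerase II paused near the start, had 29 reads in Des+/+ basal and 30 in Des-/- basal. Paf1, of the elongation complex that bears its name, had 28 and 37 reads. Nudt21, a subunit of the cleavage factor that sets the site of polyadenylation, had 29 and 30 reads, although 21.4% of its 100-base stretches occur elsewhere in the genome. Xpo7, a nuclear export receptor, had 28 and 33 reads. These 4 genes had no assigned swim peak, and the nearest swim peak lay between 8838 bp (Paf1, Des+/+ swim) and 239785 bp (Nelfa, Des+/+ swim) away.

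Further genes among the 25 had varied roles. Copz1 (29 and 31 reads) encodes a coatomer subunit, Golga7 (29 and 30) a Golgi protein of the palmitoylation of Ras, Dctn6 (32 and 33) a dynactin subunit, and Ckap5 (37 and 29) a microtubule polymerase. Mtmr6, a phosphoinositide phosphatase, had 28 and 36 reads, Wdsub1 28 and 36, and Cacfd1 30 and 34. Trpm8, a cold-sensing ion channel, had 29 and 37 reads with inputs of 9 and 7. No gene list was tested on these 25 peaks, which were ranked by height.

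Not every member lay at a promoter without any call after swimming. A swim peak lay within 1000 bp of 436 members (25.1%, interval 23.1 to 27.1%) without overlapping them. This was so in Des+/+ swim for 340, in Des-/- swim for 336 and in both for 240. Another Des+/+ basal peak lay within 1000 bp of 401 of the 436, against 250 of the other 1304 members (19.2%). Of these 401, 321 were lower than that neighbouring basal peak and 20 equal to it. They were thus mostly the smaller of neighbouring acetylation blocks. Snrpc (ENSMUSG00000024217, chr17:27840042-27840616), of the U1 splicing particle, is the highest of them, with 37 and 41 basal reads. Its second Des+/+ basal peak, of 38 reads, was 2 bp away, and after swimming a peak of 21 reads directly adjoined the member in Des+/+ and a peak of 22 reads lay 30 bp away in Des-/-. The deubiquitinase gene Usp37 (31 and 33 reads) and the Golgi gene Golgb1 (29 and 41 reads) had swim peaks of 15 to 22 reads within 225 bp.

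In 170 members the Des-/- basal peak that overlapped the member also overlapped a swim peak, and 168 of these were among the 436. In 154 of the 170 this Des-/- basal peak spanned at least 2 Des+/+ basal peaks, so that its height need not come from the member itself. Calm3, a calmodulin gene, had 22 reads in Des+/+ basal and 109 in Des-/- basal. Its neighbouring Des+/+ basal peak had 92 reads, and swim peaks of 62 and 75 reads lay 175 bp and 20 bp away. The members at Smad5, a BMP signal transducer (15 and 68 reads), Rbm3, a cold-inducible RNA-binding protein (20 and 67), and Med1, a Mediator subunit (24 and 45), were of the same kind, with swim peaks of 29 to 42 reads within 141 bp. Each of these promoters thus had a swim peak close by in both genotypes.

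The remaining 1302 members (74.8%), at 1208 genes, had no swim peak within 1000 bp and a Des-/- basal partner that was also absent from both swim lists. Their median heights were the same as those of all members, 18 reads in Des+/+ basal and 20 in Des-/- basal, with maxima of 40 and 61. They covered the start more often (75.9%) than the 436 with a swim peak nearby (45.2%), and their median width was 667 bp against 575 bp. Of their 1208 genes, 972 had no peak assigned in either swim list, a count for which no share over all eligible genes was taken. Over all members, the median distance to the nearest swim peak was 22278 bp, and 331 members lay more than 100000 bp from one.

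By gene, the members belonged to 1618 symbols, of which 113 had 2 or more member peaks. For 1027 genes (63.5%) no peak was assigned in either swim list, and for 591 (36.5%) another peak was. The same share over all eligible genes was not taken, so these counts are descriptions only. A gene without an assigned peak can still have a swim peak close by, as at Golgb1 (204 bp away in Des+/+ and 147 bp in Des-/-). Mtus1 and Kmt5a had 4 member peaks each, as did Gm13285, a gene model in a cluster of near-identical sequence on chromosome 4. Impdh1, Bcas3 and Tecr had 3 each. The histone genes H2bc23, H2ac7 and H3c4 and the gene models Gm13285 and Gm13289 were among 17 members (0.977%) of which at least 50% of the 100-base stretches were repeated in the genome, against 0.218% of kept peaks of equal height, and their values depend on where repeated reads were placed.

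Further properties were set beside those of kept promoter peaks of the same Des+/+ basal height, weighting the kept peaks by the number of members at each height. Width, input height and the Des-/- basal peak entered the rule, and a wider peak has more room to overlap a swim peak, so differences in width are not independent of how the members were chosen. All are descriptions of 1 library per group, without a test. The member peaks were narrower, with a mean width of 720 bp (SD 318 over peaks) against 898 bp, a difference of -178 bp. At a Des+/+ basal height shared with the kept peaks, the members were also lower in Des-/- basal, with 21.7 reads against 28.2. A further Des+/+ basal peak within 1000 bp was less frequent at members (37.4%) than at kept peaks (46.6%) when matched on Des+/+ height, but 37.4% against 37.0% when matched on Des-/- height. The genes of the members had a mean of 1.97 assigned Des+/+ basal peaks against 2.29. Mean input height was 2.97 reads against 2.85.

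Width separated eligible peaks in the same way within the whole set. Of 915 eligible peaks under 500 bp wide, 446 were members (48.7%, interval 45.5 to 52.0%), where eligible peaks of the same heights had a mean share of 38.6%. Of 1749 peaks of 1500 bp or more, 47 were members (2.69%, 2.03 to 3.56%), where the heights gave 6.17%. Narrow peaks were thus members more often, and broad ones less often, than peaks of equal height.

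In position and sequence the members were close to kept peaks of equal height, and the direction of several differences changed with the matching. They covered the start in 68.1% of cases against 70.6% (66.4% with width class matched as well), and the summit lay downstream of the start in 68.6% against 68.9%. The mean distance to the start was 63.1 bp against 60.8 bp (SD 162), a difference that became -0.339 bp when matched on Des-/- height. An opposite-strand start lay within 1000 bp upstream of 16.2% against 14.5% (16.9% with width class matched as well). The CpG ratio, the number of CG dinucleotides over that expected from the C and G content in the 250 bp on either side of the start, was 0.735 in members and 0.709 in kept peaks, with an SD of 0.239 over members. With width class matched as well, the difference was -0.0121, so no direction can be given. GC content was 63.1% against 62.0%.

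**Figure D4:**
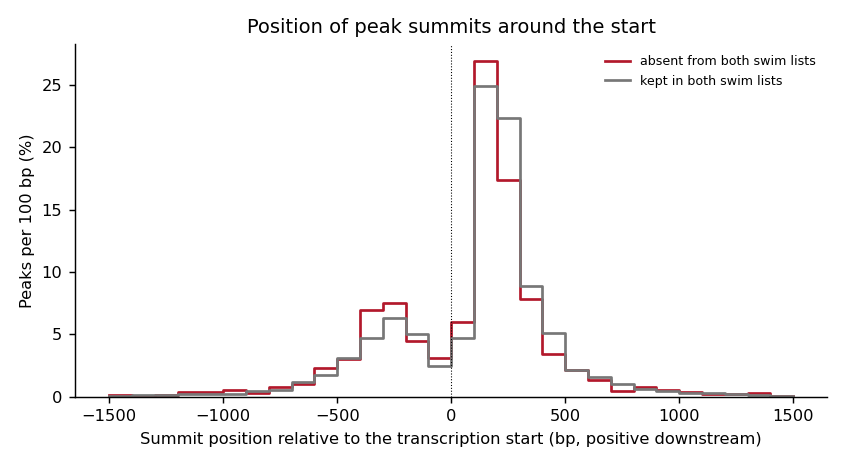
Position of the peak summit relative to the annotated start (bp, horizontal axis, positive downstream) as percent of peaks per 100 bp (vertical axis), for the 1740 members (red) and the 5405 peaks kept in both swim lists (grey, all heights). Both sets have their main mode 100 to 200 bp downstream of the start (24.9% of kept peaks) and a smaller one 200 to 300 bp upstream (7.53% and 6.33%).

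Promoters poor in CpG showed a somewhat different share with height matched. Width, with which the CpG difference above changed sign, was not matched here, so no direction can be given. Among 572 eligible peaks with a CpG ratio under 0.3, 135 were members (23.6%, interval 20.3 to 27.3%), where peaks of the same heights gave 28.5%. At a ratio of 0.8 or more, 836 of 5113 were members (16.4%, 15.4 to 17.4%), close to the share from height. Some heart genes among the members belong to the CpG-poor class, such as Mb, the oxygen store myoglobin, with a ratio of 0.087, Xirp2 with 0.16 and Synpo2l with 0.21. Others do not, such as Trpm4 with 0.67, Hey1 with 0.93 and Kcnh2 with 0.95. The share of heart genes in this class was not counted.

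Short motifs were counted on both strands in RefSeq promoter windows (GRCm38.p6, 250 bases before to 50 after the start), to which 1239 of the 1740 members matched. The GC box GGGCGG was in 69.1% of the members' windows, against 66.1% for kept peaks of equal height and 35.7% of all 32851 promoter windows. The ETS motif CCGGAAG was in 19.2%, 20.6% and 8.86% in the same order, and the NRF1 core GCATGCGC in 6.70%, 5.04% and 2.71%. The CCAAT box was in 39.9%, 40.5% and 37.4%. The TATA box TATAAA was in 6.21%, 6.94% and 13.6%, the GATA motif AGATAA in 5.00%, 5.38% and 11.2%, and the AP-1 motif TGAGTCA in 3.23%, 4.08% and 5.20%. As in kept peaks, GC boxes were thus more frequent and TATA boxes rarer in members than in all promoter windows. Members stood within 2.94 percentage points of kept peaks for each motif, but not all motifs were alike. The members' Wilson interval lay above the kept value for the GC box (66.5 to 71.6%) and the NRF1 core (5.44 to 8.23%). For the other motifs counted it contained the kept value. Width was not matched here, and the cause of these differences was not tested. The remaining 4 of 11 motifs were TGACGTCA (CRE, 2.42% of members and 3.35% of kept peaks), CACGTG (E-box, 11.0% as against 11.7%), CTATTTATA (MEF2, 0.0807% and 0.273%) and AAGATGGCG (YY1, 2.42% and 2.93%). A match is only a run of letters and says nothing of binding.

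Gene groups were followed by the highest eligible peak of each gene. A gene called absent below lacked that peak in both swim lists, while other peaks could remain assigned to it. Of 7691 genes with an eligible peak, 1259 had their highest one among the members, which is 16.4%. Because this share depends on height, each list is given beside the mean share of all genes with peaks of the same heights. The 95% Wilson interval of each of the 31 lists contained that value, so no list stood apart from its heights at this number of genes. The lists were chosen with earlier results of these data known.

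Of the heart's own genes, 6 of 40 sarcomere and contraction genes with an eligible peak were absent after swimming (interval 7.06 to 29.1%, 16.1% from height). They were the thin-filament gene Lmod3 (24 and 17 reads), Xirp2, Nebl (19 and 16), the slow myosin gene Myh7b (17 and 17), the cardiac actin gene Actc1 (16 and 27) and the myosin chaperone Unc45b (15 and 21). Xirp2, an actin-binding protein of the intercalated disc, had 20 and 19 reads at chr2:67446403-67446932 and no peak assigned to it in either swim list. Including every eligible peak and not the highest alone, 12 of the 40 genes had a member, against 1618 of the 7691 genes overall. No share from height was taken for this wider count, so it is a description only. Synpo2l, a Z-disc protein, had 26 reads in Des+/+ basal and 22 in Des-/- basal at the member, while Des+/+ swim still had 2 peaks assigned to it and Des-/- swim none. The member at Mybpc3, cardiac myosin-binding protein C, lay 783 bp from the start (19 and 19 reads), and Des+/+ swim kept a peak of 15 reads 196 bp away. At Ttn, the giant spring protein titin, the member (15 and 25 reads) lay beside swim peaks of 21 reads in Des+/+ and 15 in Des-/-. Neither of these 2 marker genes had lost all of its calls in Des+/+ swim.

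Of 26 genes of calcium handling and ion channels 7 were absent (26.9%, interval 13.7 to 46.1%, 17.9% from height). Trpm4, a calcium-activated cation channel, had 22 and 24 reads and no assigned swim peak. Kcnh2, which carries the rapid delayed rectifier current, had 21 and 18 reads, and Cacnb2, the beta subunit of the L-type calcium channel, 20 and 20. Another peak remained assigned to Kcnh2 in both swim lists and to Cacnb2 in Des+/+ swim. The 4 others were Casq1, Cacnb1, Kcnip2 and Cacna2d1, at 15 to 21 reads in both basal lists. Among cardiac transcription factors 9 of 31 genes were absent (interval 16.1 to 46.6%, 30.4% from height). The Notch target Hey1 had 21 and 20 reads, the lymphatic and cardiac factor Prox1 19 and 22, and Zfpm1, the partner of GATA4 also called FOG1, 21 and 15 at its highest eligible peak. Another peak remained assigned to Hey1 and to Prox1 in both swim lists, and none to Zfpm1. Tbx5 stood at 15 and 18 reads and Irx4, a ventricular homeobox factor, at 22 and 16. The Poisson interval of each of these transcription factor heights reaches below 15 reads.

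In energy and ribosome lists the intervals of oxidative phosphorylation and cytosolic ribosomal protein genes lay below the 16.4% of all genes, while those of fatty acid oxidation and the mitochondrial ribosome contained it. Of 66 oxidative phosphorylation genes 2 were absent (3.03%, interval 0.835 to 10.4%, 5.71% from height). These were Ndufb11, of respiratory complex I (19 and 24 reads), and Cox7b, of cytochrome c oxidase (19 and 23), both on the X chromosome. Of 83 genes of fatty acid oxidation and energy metabolism 7 were absent (8.43%, 4.15 to 16.4%, 13.3% from height), led by Cpt2. Letm1, of mitochondrial cation exchange, had 23 and 26 reads, and Pdhx, a component of the pyruvate dehydrogenase complex, 23 and 21. A Des+/+ swim peak of 20 reads lay 242 bp from the Pdhx member, and the nearest Des-/- swim peak 411233 bp away. Of 43 mitochondrial ribosome genes 5 were absent (11.6%, 5.07 to 24.5%, 22.1% from height), and of 59 cytosolic ribosomal protein genes 1 (1.69%, 5.76% from height), the muscle paralog Rpl3l (21 and 17 reads). By any eligible peak 7 of the 59 had a member, and those at Rpl15 (25 and 26 reads), Rps29 (22 and 19), Rpl14 (21 and 19) and Rpl34 (18 and 22) each had a swim peak within 225 bp in both genotypes.

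Of 40 immediate early and stress response genes 1, the phosphatase gene Dusp4 (19 and 25 reads), was absent (2.50%, interval 0.443 to 12.9%, 10.1% from height). In this list 37 genes kept their highest peak in both swim lists. Its median Des+/+ basal height was 38.5 reads, and of all eligible peaks at 35 to 40 reads 90.2% were kept in both. Of 54 genes of the Notch, Wnt and Hippo pathways 6 were absent (11.1%, 13.9% from height). The named members were Hey1, the Notch-modifying glycosyltransferase Lfng (19 and 20 reads), the Wnt receptor ligase Znrf3 (17 and 30) and the Hippo kinase Stk4 (16 and 18). In the TGF-beta and BMP list 2 of 28 were absent (7.14%, 11.3% from height), Acvr2b and Bmp4 (15 and 16 reads). In the circadian clock list it was 2 of 20 (10.0%, 8.61% from height), Bmal1 (17 and 22 reads) and Tef (16 and 22). Other peaks remained assigned to both genes, 1 in each swim list for Bmal1 and 4 in each for Tef.

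Cell cycle and DNA replication had 12 of 37 genes absent (32.4%, interval 19.6 to 48.5%, 25.3% from height), among them Cdc25a, a phosphatase that activates cyclin-dependent kinases (20 and 23 reads), E2f6 (18 and 26) and E2f5 (18 and 26). GPCR and cyclic nucleotide signalling had 18 of 60 (interval 19.9 to 42.5%, 23.7% from height), with Prkar2a, a regulatory subunit of protein kinase A (23 and 23). Adrb1, the main cardiac beta-adrenergic receptor (16 and 20 reads), and Chrm2, the cardiac muscarinic receptor (15 and 19), were among the 18. DNA repair had 10 of 40 (25.0%, 19.9% from height), led by the checkpoint kinase gene Atr (25 and 28). Zfp zinc finger genes had 43 of 192 (22.4%, 17.1 to 28.8%, 19.8% from height), and homeobox and developmental factors 12 of 54 (22.2%, 22.6% from height). The intervals of cell cycle, GPCR and zinc finger genes lay above the 16.4% of all genes, and those of oxidative phosphorylation, ribosomal proteins and immediate early genes below it. The median Des+/+ basal heights were 22, 23.5 and 27 reads in the first 3 and 41.5, 36 and 38.5 reads in the last 3.

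**Figure D5:**
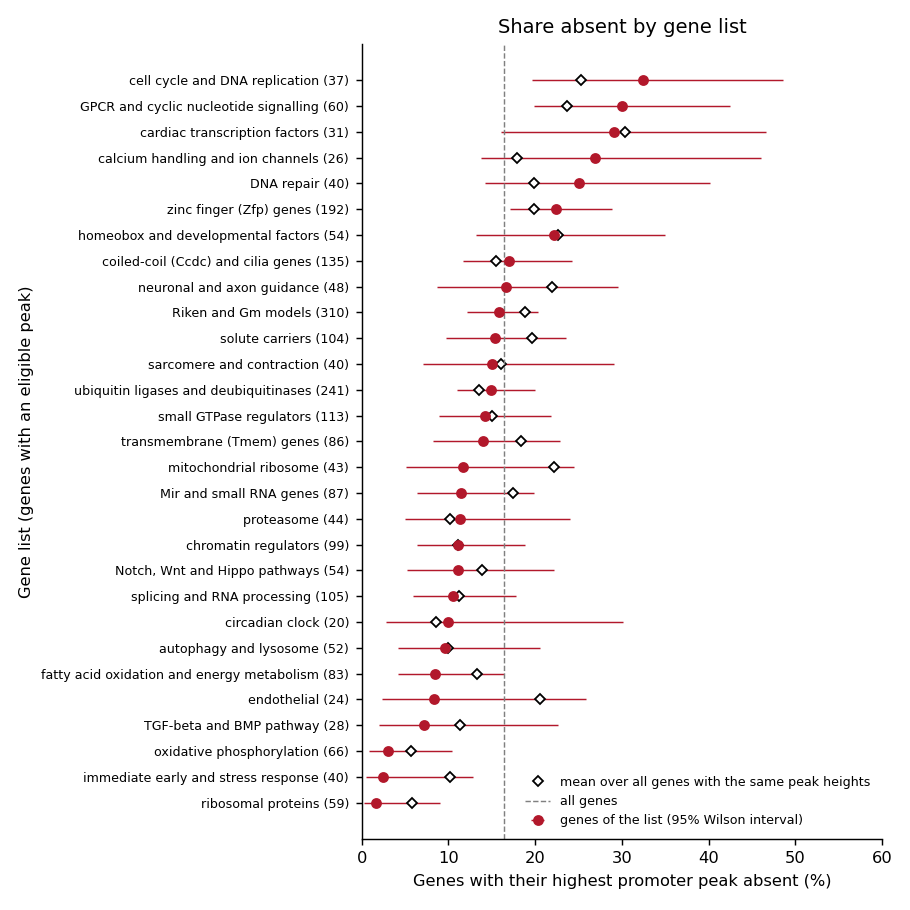
Percent of genes in each list whose highest eligible promoter peak was absent from both swim lists (red, with 95% Wilson interval) for the 29 lists of 20 or more genes, beside the mean over all genes with peaks of the same heights (open diamonds) and the 16.4% of all genes (dashed line); the number of genes is in brackets. Every interval contains its diamond, and ribosomal protein genes (1.69%) and cell cycle genes (32.4%) stand at the ends.

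In the remaining lists the intervals contained both the share from height and the 16.4% of all genes. Of lists of protein turnover, the proteasome had 5 of 44 genes absent (11.4%, 10.1% from height), ubiquitin ligases and deubiquitinases 36 of 241 (14.9%, 13.5% from height) and autophagy and lysosome 5 of 52 (9.62%, 9.91% from height). Splicing and RNA processing had 11 of 105 (10.5%, 11.2% from height) and chromatin regulators 11 of 99 (11.1%, likewise 11.1% from height). Small GTPase regulators had 16 of 113 (14.2%, 15.01% from height) and coiled-coil and cilia genes 23 of 135 (17.04%, 15.5% from height). The share was below that from height in solute carriers (16 of 104, 15.4% against 19.6%), Tmem genes (12 of 86, 13.95% against 18.3%), neuronal and axon guidance genes (8 of 48, 16.7% against 21.9%), small RNA genes (10 of 87, 11.5% against 17.5%) and Riken and Gm models (49 of 310, 15.8% against 18.8%). Of other cell types, 2 of 24 endothelial genes (8.33%, interval 2.32 to 25.8%, 20.6% from height) were absent, and the member at the endothelial receptor gene Tek had 23 and 18 reads. In the fibroblast list it was 2 of 5 genes, Timp2 (16 and 20) and Pdgfra (16 and 15), and of 1 leukocyte gene none.

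Lamin A/C, the nuclear lamina protein mapped in the same study, had a peak in any of its 4 lists over 2 of the 1740 members (0.115%, interval 0.0315 to 0.418%). Over the eligible peaks the number was 16 of 9228 (0.173%) and over those kept in both swim lists 9 of 5405 (0.167%). The 2 members were 2610005L07Rik, in partly repeated sequence, and Zfta (20 and 31 reads). Apart from the Y chromosome, which had 1 eligible peak, the share of members among eligible peaks ran from 14.3% on chromosome 16 (interval 10.8 to 18.8%) to the X chromosome (40 of 167, interval 18.1 to 31.0%), where the heights gave 17.6% and 25.7%.

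Peaks next to the limits of the rule are given here as values alone. Distances below 0 are upstream of the start. Inside the distance limit were Mb at -997 bp (20 and 18 reads), Spred1 at -983 bp (15 and 57) and Meis1 at 980 bp (15 and 15), and outside it were Idh1 at 1002 bp (17 and 17) and Plekhm2 at -1019 bp (17 and 22). Inside the width limit were Nfkbil1 with 2486 bp, Dennd2b with 2466 bp and Tcf15, a bHLH factor, with 2406 bp (36 and 25 reads). Only 2 peaks fell outside it, those of the endothelial genes Cdh5 (2861 bp, 20 and 19 reads) and Aplnr (2963 bp, 18 and 18 reads). Inside the input limit were H2-Q9 and Trpm8, with 9 reads each, and Tmem181a with 8, and no peak lay outside it.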

How the data were processed

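Peak lists of the 8 precipitated libraries were used (4 for H3K27Ac and 4 for lamin A/C, 1 per group). Per the labels, the authors aligned reads to GRCm38 (mm10) with Bowtie2 2.4.4 and used SAMtools 1.13 and ChIPseeker 1.36.0. Peaks were called against input with a script of their own. Removal of duplicates and scaling of the input are not given in the sources used here. The deposited heights of peak and input are coverage signal values in whole reads. The deposited distance to the nearest start is a score in bp. The authors' own fold change, p-value and false discovery rate columns were not used. Depth per library is not in the lists and limits what absence of a call can show.

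The members and gene lists were chosen with earlier results of these data known. Named genes were the 25 members with the largest smaller-of-2 basal heights, the 4 highest members of each gene list, the 3 peaks nearest each limit on either side, the members nearest to and farthest from a swim peak, those with a lamin A/C overlap, and kept peaks of equal height. A peak outside the distance limit and a kept peak that this rule names are not reported here. Other absent members of a list were named after their values were seen. These were the further sarcomere genes, Casq1, Cacnb1, Kcnip2, Cacna2d1, Tbx5, Irx4, Rpl3l, Adrb1 and Chrm2. Markers, repeated-sequence members and genes with several members were also named after their values were seen. Sequences and CpG ratios were read from the GRCm38.p6 genome. No test was run, since each group had 1 library. Overlap and matching code was tested on simulated peaks. Python 3.11.15 with pandas 2.3.3, numpy 2.4.6 and scipy 1.17.1 was used.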

Additional observations from a re-analysis of the deposited data

How the results depend on the processing

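The number of members (1740, 18.9% of eligible peaks) depended most on height. Of peaks with at least 20 reads in both basal lists 450 were members (6.80%), and with at least 30 reads 12 (0.345%). With each list cut to the length of the shortest (10407 peaks) there were 518 (7.72%), 22.2% of them with a swim peak within 1000 bp. Counting a swim peak within 1000 bp as present gave a share of 14.1%, dropping the limit on width 17.9%, and, chosen after seeing the data, requiring the Des-/- basal partner to lack a swim peak 17.3%. Also chosen after seeing the data, absence judged without the Des-/- swim list gave 2717 (29.4%) and without the Des+/+ swim list 2846 (30.8%). Lamin A/C overlap was 0.444% among members of at least 20 reads. The CpG difference from kept peaks (0.0252) turned to -0.0121 with width class matched, and the difference in distance (2.24 bp) to -0.339 bp when matched on Des-/- height; the cause was not tested. The CpG difference was 0.0685 when matched on Des-/- height and 0.0591 when started from the Des-/- list, and lamin A/C overlap was 0.057% with an overlap of at least 50% of the shorter peak. The other alternatives kept the direction of the differences, and under them the number of members lay between 1304 and 1913. No paired analysis was possible because each group has 1 library. Counting error at heights near 15 reads, the unknown depth of each library and the higher input of Des-/- swim limit what absence of a call shows.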
